A study of Mus musculus with 8 samples.

Results

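The cyclin-dependent kinase (CDK) inhibitors were followed at 7 genes in DNA methylation data from quiescent mouse muscle stem cells: Cdkn1a, Cdkn1b and Cdkn1c of the Cip/Kip family, and Cdkn2a, Cdkn2b, Cdkn2c and Cdkn2d of the INK4 family. They were taken by name from the 21631 protein-coding genes of the RefSeq gene table of the mouse genome build GRCm38.p6, and all 7 were found. Cdkn1a spans chr17:29090979-29100722, Cdkn1b chr6:134920401-134925525 and Cdkn1c chr7:143458339-143461059. Cdkn2a (chr4:89274473-89294619) and Cdkn2b (chr4:89306289-89311032) are neighbours, Cdkn2c lies farther along the same chromosome at chr4:109660876-109666756, and Cdkn2d spans chr9:21288459-21291421. Their spans with 10 kb on each side held 5818 of the 32984740 CpG cytosines listed on chromosomes 1 to 19 and X. The cells came from limb muscle of male C57BL/6 mice, 4 young animals aged 4 months and 4 old animals aged 22 months, with no other treatment or allele named, and each library held the cells of 1 animal. They had been sorted for VCAM on the surface and against the blood marker CD45, the endothelial marker CD31 and Sca1. Methylation was read by whole-genome bisulfite sequencing, in which unmethylated cytosines are converted and read as thymine. The comparison asks how methylation in the resting stem cell differs with age.

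INK4 proteins bind CDK4 and CDK6 and keep them from cyclin D, while Cip/Kip proteins bind complexes of cyclins and CDKs, CDK2 among them, so that both families hold the retinoblastoma protein in its active form and the cell in G1. In muscle stem cells, p27 and p57 are known from quiescence and differentiation, p21 from the exit from the cycle, and p16 from senescence in very old muscle. Methylation of CpG-rich promoters generally goes with silencing, and a promoter without it can be active or silent.

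The authors' deposited table gives 1 smoothed level per age for each cytosine, as a fraction that is printed here in percent, with a dispersion per age and a p-value and false discovery rate (FDR) for old against young. Neither single animals nor read counts are given in it. Levels below are therefore the authors' group levels, averaged over cytosines, with no SD, and the depth behind a cytosine is unknown. Each level averages all sorted cells and both alleles, so partial methylation of every cell and full methylation of some cells cannot be told apart. A window's p was taken as the middle value of the authors' p-values at its cytosines, multiplied by 2 (2 times the median p), with Benjamini-Hochberg adjustment over all genes and a call at an adjusted p of 0.05. As a check of the sort, the less methylated ends of 7 muscle stem cell genes lay between 3.88% and 25.5% over both ages, those of 4 blood genes between 49.8% and 68.6%, and that of Pecam1, the endothelial CD31, at 72.5% in young cells and 72.9% in old. The end of Ly6a, the Sca1 gene, was listed at 46.4% in young cells and 51.7% in old. Kdr, Tek, Pdgfra and Cd34, markers of endothelial and fibro-adipogenic cells, had ends at or under 15.9%. The end of Cdh5, also endothelial, lay within the range of the blood genes at both ages. Among genes of the muscle fibre, Acta1 was at 5.17% in young cells and 5.24% in old. Ckm also lay inside the range of the stem cell genes at both ages, and Myh4 was at 49.2% and 52.1%. A low end alone thus does not separate these cell types from muscle stem cells. The part of any admixed cells in the values below was not tested.

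Cdkn1a and Cdkn2a each have a pair of RefSeq starts with very different CpG content, and Cdkn2b lies in the same locus as Cdkn2a. Their promoters, 250 bases before to 50 after the start, are shown because they carry the contrast between the methylated upstream start of Cdkn1a and unmethylated starts that differ widely in CpG content. Sequences are from RefSeq, build GRCm38.p6, 5′ to 3′ on the strand of the gene, and capitals mark CpG dinucleotides.
Cdkn1a upstream start, chr17:29090729-29091028, plus strand: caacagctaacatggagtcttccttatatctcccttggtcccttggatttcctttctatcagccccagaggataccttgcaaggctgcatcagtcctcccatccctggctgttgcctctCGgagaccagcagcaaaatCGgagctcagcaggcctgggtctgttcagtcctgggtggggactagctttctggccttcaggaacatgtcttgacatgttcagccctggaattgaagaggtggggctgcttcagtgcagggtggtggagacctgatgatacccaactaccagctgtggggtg
Cdkn1a downstream start, chr17:29093519-29093818, plus strand: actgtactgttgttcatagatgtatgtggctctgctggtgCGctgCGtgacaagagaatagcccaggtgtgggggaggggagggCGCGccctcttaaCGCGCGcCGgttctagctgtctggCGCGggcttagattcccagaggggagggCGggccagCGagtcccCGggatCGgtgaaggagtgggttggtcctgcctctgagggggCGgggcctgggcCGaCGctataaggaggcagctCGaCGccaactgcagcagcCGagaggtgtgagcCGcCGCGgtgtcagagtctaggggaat
Cdkn2a upstream start (Arf), chr4:89294570-89294869, minus strand: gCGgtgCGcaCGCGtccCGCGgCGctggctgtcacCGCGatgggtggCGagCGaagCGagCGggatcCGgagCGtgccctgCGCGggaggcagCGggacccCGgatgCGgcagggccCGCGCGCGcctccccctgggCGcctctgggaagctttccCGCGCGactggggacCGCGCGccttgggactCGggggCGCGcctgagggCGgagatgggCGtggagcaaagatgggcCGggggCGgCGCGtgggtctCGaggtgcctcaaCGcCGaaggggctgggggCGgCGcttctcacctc
Cdkn2a downstream start (p16), chr4:89282143-89282442, minus strand: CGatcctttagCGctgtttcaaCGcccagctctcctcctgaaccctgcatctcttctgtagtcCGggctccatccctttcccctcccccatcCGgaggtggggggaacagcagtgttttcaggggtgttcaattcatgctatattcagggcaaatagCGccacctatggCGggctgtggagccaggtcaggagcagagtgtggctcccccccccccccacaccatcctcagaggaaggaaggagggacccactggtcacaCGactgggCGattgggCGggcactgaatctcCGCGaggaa
Cdkn2b, chr4:89310983-89311282, minus strand: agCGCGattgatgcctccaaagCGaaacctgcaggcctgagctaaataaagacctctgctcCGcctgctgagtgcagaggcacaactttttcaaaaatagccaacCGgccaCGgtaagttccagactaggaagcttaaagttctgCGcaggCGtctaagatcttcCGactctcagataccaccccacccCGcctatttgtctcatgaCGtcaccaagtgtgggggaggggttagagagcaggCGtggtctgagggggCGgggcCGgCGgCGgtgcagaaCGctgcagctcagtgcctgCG

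The upstream promoter of Cdkn1a held 2 CpGs and the downstream one 23, against a median of 13 over 21045 promoters. The Arf promoter held 45, more than 97.5% of promoters, the p16 promoter 12 and the Cdkn2b promoter 18. The Cdkn1b promoter held 30, the Cdkn2d promoter 22, and the upstream and downstream promoters of Cdkn2c 33 and 8. A p53 response element, searched by its consensus over 20 bases with at most 1 mismatch on both strands, was found in the upstream Cdkn1a promoter, 51 bases before the start at chr17:29090928-29090947, as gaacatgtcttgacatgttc. It holds no CpG, so these data give no level inside it, and 0.0665% of promoters (14 of 21045) held such a match. A cyclic AMP response element, TGACGTCA, was found in the Cdkn2b promoter, as in 2.26% of all promoters. GC boxes, searched as GGGCGG on both strands, were found in all of the member promoters searched except the upstream one of Cdkn1a and the downstream one of Cdkn2c, against 46.7% of all promoters. The CCAAT box, searched by these letters on both strands and held by 38.5% of all promoters, was found in the promoter of Cdkn1b, the p16 promoter, the downstream promoter of Cdkn2c and the promoter of Cdkn2d. None of the motifs searched is contained in another, and a match describes the sequence only.

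The ends of each span were read within 1000 bp, and the less methylated end is the one with the lower mean over both ages. It was at or under 12.9% at both ages in 5 of the 7 genes, and no end of any member was called different between ages. Cdkn1b, Cdkn2a, Cdkn2b, Cdkn2c and Cdkn2d had unmethylated starts in young and old cells, Cdkn1a had one inside its span, and Cdkn1c stayed at intermediate levels at both ages. Over all genes the test called 0% of 38816 end windows and 0.0361% had an unadjusted p under 0.05; of the 13 member windows with at least 10 cytosines, 0 were called and 0 had such an unadjusted p. The Simes combination, which rests on the smallest p-values in a window, called 2.01% of all end windows and 0 of the members. The less methylated end was higher in old cells in 2 of 7 members and in 46.3% of all genes. The members' mean difference was -0.241 percentage points (median -0.179), beside 0.121 (median -0.0472) over 20440 genes, and with windows of 500 bp the members' mean was 0.613. No SD over animals can be given for these differences, which were within 1 point for 85.7% of members and 67.8% of all genes. These shares were not matched for level, and ends at low levels differed less. At 6172 gene ends within 2 points of the Cdkn2a level, the 5th and 95th percentiles were -0.648 and 0.410 points. At 783 ends within 2 points of the Cdkn1a level they were -5.64 and 6.94 points.

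**Figure D1:**
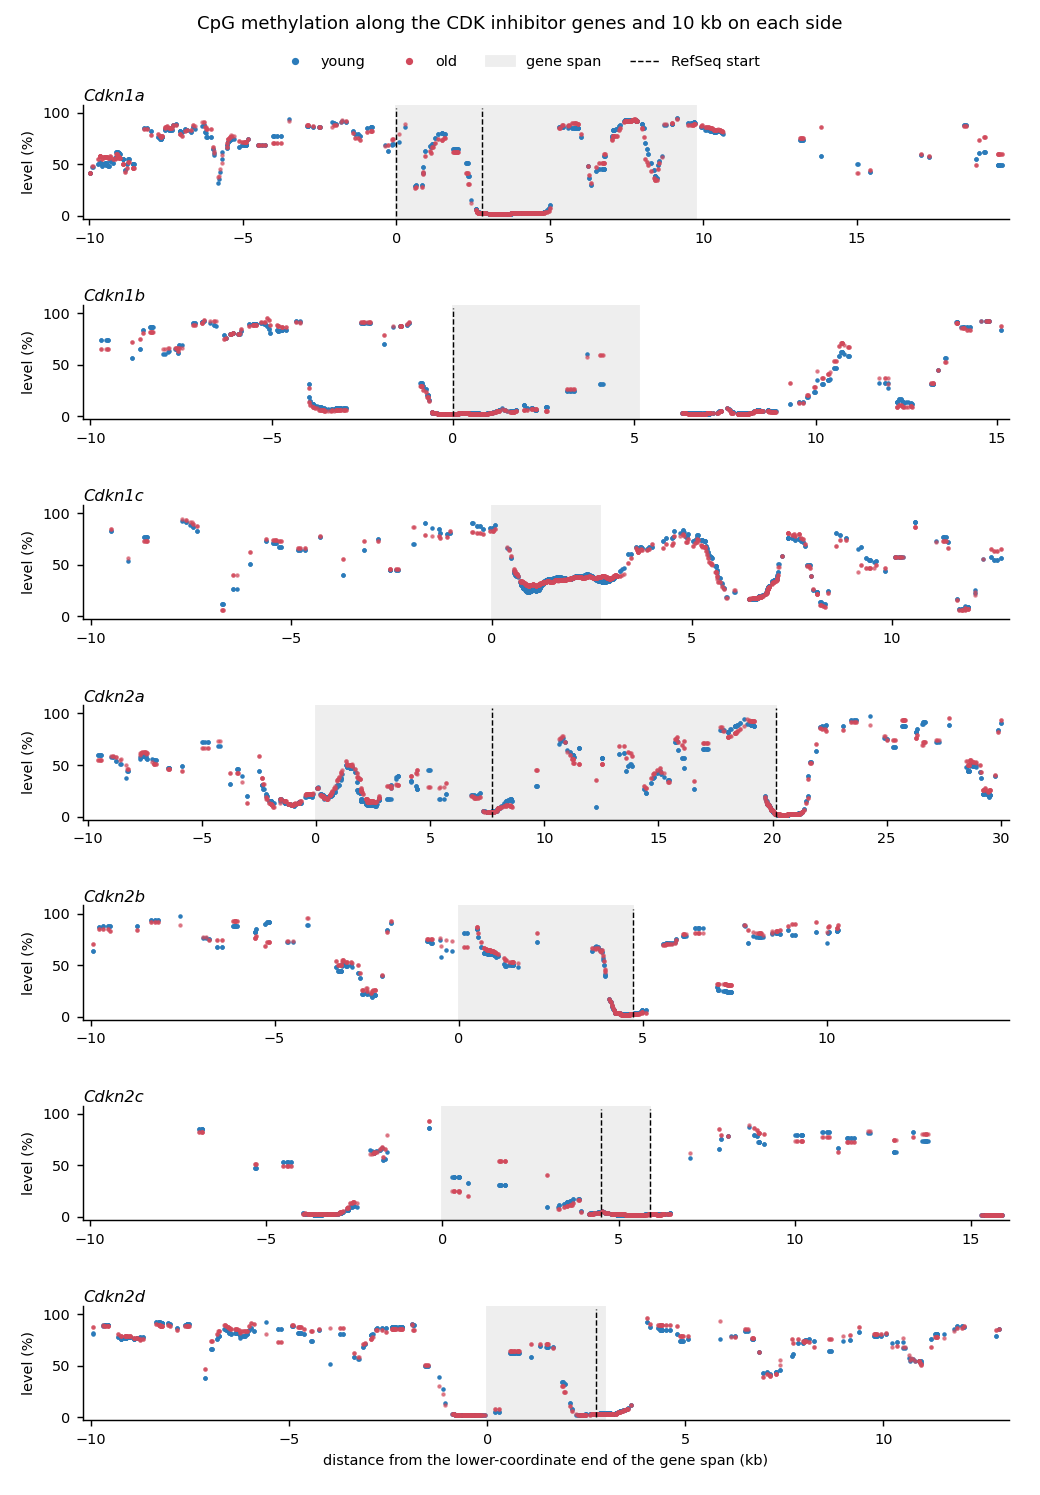
Methylation level in percent of every listed CpG cytosine (points, young in blue, old in red) against the distance in kb from the lower-coordinate end of each gene, with the span in grey and RefSeq starts dashed. Levels drop to a few percent around every RefSeq start drawn except the upstream one of Cdkn1a, while in Cdkn1c 98.1% of the span's cytosines lie between 20% and 60% at both ages.

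Cdkn1a encodes p21, the main CDK inhibitor induced by p53. At its upstream start, within 1000 bp, the level was 62.3% in young cells and 61.3% in old over 29 cytosines. The 4 cytosines inside the printed upstream promoter were at 69.9% in young cells and 74.4% in old, with a smallest p of 0.419 in the authors' deposited table. Around the downstream start the level was 9.61% in young cells and 8.90% in old over 205 cytosines, and inside that promoter 3.56% and 3.36% over 46. The 2 starts of 1 gene thus stood far apart in level in both age groups, while the ages stood close at each. A stretch with every listed cytosine under 20%, allowing gaps of up to 1000 bp, ran for 2549 bp across the downstream start in both ages. Further into the gene, 6 cytosines at 29099084 to 29099183 were listed at 65.5% in young cells and 52.2% in old, 4 of them with p under 0.05 and 0 past the FDR. The span as a whole was at 32.5% in young cells and 31.7% in old over 586 cytosines, the only member span with a lower level in old cells. With the flanks included the Cdkn1a difference was 0.140 points, in the other direction. Within 500 bp the difference at the upstream start was 4.22 points, also in the other direction.

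Cdkn1b encodes p27, which holds resting cells out of the cycle and is removed through Skp2. Its start was at 4.41% in young cells and 4.11% in old over 270 cytosines, with 28 of the 270 higher in old. Inside the promoter the level was 2.25% in young cells and 2.20% in old over 60 cytosines. The stretch under 20% ran for 3292 bp in young cells and 3312 bp in old, longer in young than the stretch of 95.5% of 11505 genes that had one. With a limit of 10% it measured 2327 bp in young cells and 3187 bp in old, so its agreement between ages also rests on the limit chosen. A separate low segment lay 4 kb before the gene: the kilobase at 134916401 to 134917400 held 53 cytosines at 9.71% in young cells and 7.53% in old. Low levels returned past the other end, with 112 cytosines at 2.67% and 2.49% in the kilobase from 134926401. In the kilobase from 134928401, which holds the beginning of the long non-coding RNA gene Lockd, 114 cytosines were at 4.28% and 3.86%. Near the higher-coordinate end of the span, 4 cytosines at 134924442 to 134924522 were listed at 30.8% in young cells and 59.6% in old, with 2 of 4 p-values under 0.05 and no FDR under 0.05. Both cytosines with p under 0.05 carried the most common dispersion value of an age. Over the span the level was 5.17% in young cells and 5.30% in old over 227 cytosines. Without the cytosines at the most common dispersion value the span difference was -0.0249 points, in the other direction. No cytosine was listed within 1000 bp of the higher-coordinate end, so that end has no value.

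Cdkn1c encodes p57 and is imprinted in the mouse, where it is read mainly from the maternal copy under control of the Kcnq1ot1 imprinting centre. Its span was at 35.0% in young cells and 35.8% in old over 465 cytosines. Levels between 20% and 60% were found at 98.1% of these cytosines at each age, against 18.5% of all listed cytosines in young and 17.8% in old cells. The ends were at 38.5% and 38.8% (339 cytosines, higher-coordinate end) and at 39.4% and 42.2% (110 cytosines, lower-coordinate end), young first. Intermediate levels thus ran through the whole gene in both age groups. Since alleles were not read separately, 1 methylated and 1 unmethylated copy cannot be told apart here from mixed methylation of both. Around the start of Kcnq1ot1, at 143296547 on the same chromosome, the level was 50.7% in young cells and 53.1% in old over 156 cytosines. In its 300-base promoter the level was 44.0% in young cells and 51.2% in old over 18 cytosines, with a smallest p of 0.186 in the authors' deposited table.

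The INK4 genes come next, beginning with Cdkn2a, which makes p16 and the p53 activator p19ARF from separate starts with shared downstream exons. The Arf start was at 4.37% in young cells and 4.44% in old over 317 cytosines, and its promoter at 2.02% and 2.13% over 91. The p16 start was at 9.74% in young cells and 8.20% in old over 106 cytosines, and its promoter at 5.61% and 5.34% over 24. The 2 promoters printed above were thus both nearly unmethylated at 22 months, the one with 45 CpGs and the one with 12. The stretch under 20% measured 1849 bp in young cells and 1875 bp in old at Arf. At p16 it measured 1238 bp in young cells and 1799 bp in old. The gap of 561 bp at p16 was 79 bp with a limit of 10% and 0 bp with a limit of 30%, so it rests on the limit chosen. Over all genes the median stretch was 1443 bp in young cells and 1448 bp in old, and 81.0% differed by under 100 bp between ages.

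**Figure D2:**
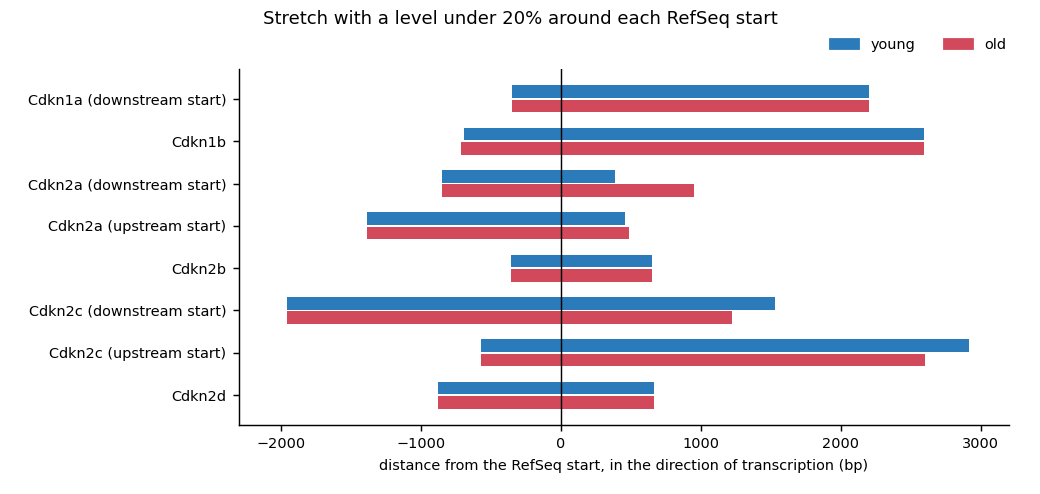
Stretch around each RefSeq start in which every listed cytosine is under 20% (bars, young in blue, old in red), as distance in bp from the start in the direction of transcription. The p16 start of Cdkn2a (its downstream start) reads 1238 bp in young and 1799 bp in old, Cdkn2c reads 3488 bp and 3178 bp in the same stretch drawn from both of its starts, and the other bars differ by 26 bp or less.

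Between these starts and the far end, the body of Cdkn2a had the largest span difference among the members. The span was at 28.3% in young cells and 30.1% in old, a difference of 1.79 points over 541 cytosines, of which 317 were higher in old. This lies within the range from the 5th to the 95th percentile of all gene spans, -1.26 to 2.15 points, and above that range for the 328 spans within 2 points of its level, -1.20 to 1.53 points. The span was not called (adjusted p = 1 by 2 times the median p; adjusted p = 0.0875 by Simes). Of the p-values in the authors' deposited table, 34 of the 541 were under 0.05, and 1 cytosine had an FDR under 0.05. A run of 19 neighbouring cytosines at 89276329 to 89276460, beginning 1856 bp from the lower-coordinate end, where transcription ends, was at 17.9% in young cells and 28.6% in old. Each of the 19 had p between 0.0227 and 0.0482, and the smallest FDR was 1. Because the levels are smoothed along the chromosome, the 19 values are not separate observations. Of 26 kilobase bins with at least 10 cytosines across the gene and its flanks, 19 were higher in old cells. The same count was 10 of 15 for Cdkn2b, 13 of 20 for Cdkn2d and 6 of 14 for Cdkn2c. For Cdkn1a it was 10 of 22, for Cdkn1b 10 of 21 and for Cdkn1c 6 of 17. The share of such bins over all genes was not computed. In Cdkn2a the widest difference upward was in the bin from 89290473, at 50.6% in young cells and 62.7% in old over 10 cytosines. The widest downward was in the flanking bin from 89300473, at 87.9% and 73.9% over 14. Inside the gene, 3 cytosines at 89279399 to 89279469 were at 44.9% in young cells and 29.1% in old, and 4 at 89285979 to 89285996 at 66.2% and 51.0%, with 0 and 1 p-values under 0.05.

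Cdkn2b encodes p15, the INK4 protein induced by TGF-beta, and lies next to Cdkn2a. Its start was at 12.9% in young cells and 12.7% in old over 168 cytosines, and its promoter at 3.67% and 3.00% over 36. The stretch under 20% was 1009 bp long in both ages, shorter than in most genes, with 21.8% of genes below it. The other end was at 65.9% in young cells and 68.6% in old over 68 cytosines, 64 of them higher in old, and within 500 bp its difference was -1.25 points, in the other direction. The span was at 30.5% in young cells and 31.5% in old over 217 cytosines. Between Cdkn2a and Cdkn2b, 8 cytosines at 89301039 to 89301131 formed a run at 91.5% in young cells and 71.4% in old. Their p-values lay between 0.000451 and 0.0499, with a smallest FDR of 0.135, so none passed the authors' FDR. The kilobase from 89299473, before the run, was at 81.1% in young cells and 86.3% in old over 16 cytosines, and that from 89302473, after it, at 47.7% and 52.5% over 22. The run thus had the other direction from these kilobases. Mtap, the neighbour of Cdkn2a in the methionine salvage pathway, had a start at 5.96% in young cells and 5.64% in old over 140 cytosines.

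Cdkn2c encodes p18 and had the lowest end of the members. Its upstream start was at 2.43% in young cells and 2.32% in old over 275 cytosines, and its downstream start at 3.76% and 3.53% over 199. The downstream promoter, with 8 CpGs, was at 4.42% and 4.20%, close to the upstream promoter with 33 CpGs at 2.80% and 2.44%. A single stretch under 20% covered both starts, with 3488 bp in young cells and 3178 bp in old, and the difference of -310 bp came from 2 cytosines at 109663842 and 109663843 that were listed at 10.1% in young cells and 40.6% in old. Toward the far end of the gene body the order was the other way, with 13 cytosines at 109661154 to 109661607 at 37.8% in young cells and 24.1% in old. Another group, 10 cytosines at 109662481 to 109662662, was at 31.2% in young cells and 54.2% in old. Of the pair 2 of 2 had p under 0.05, of the 13 it was 8 and of the 10 it was 6. The most common dispersion value of an age was carried by 1 of those 2, by all of those 8 and by all of those 6. Taken over the span, which these groups enter with opposite signs, the level was 6.21% in young cells and 6.36% in old over 281 cytosines. The other end of Cdkn2c was at 46.9% in young cells and 37.1% in old over 16 cytosines, the widest difference of any member window. These 16 include the 13 at 109661154 to 109661607, so this end and that group are not separate observations. Its 2 times the median p was 0.0505 and its adjusted p was 1; 56.2% of its cytosines were at the most common dispersion value, and within 2000 bp its difference was 2.66 points, in the other direction.

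Cdkn2d encodes p19INK4d. Its higher-coordinate end was at 4.31% in young cells and 3.87% in old over 165 cytosines, with 23 of the 165 higher in old cells. Its promoter was at 3.50% in young cells and 3.02% in old over 44 cytosines. The other end was at 11.1% and 11.4% over 136 cytosines, and the kilobase at the end of its neighbour Kri1, from 21287459, at 2.15% and 2.18% over 112. These 112 are among the 136, so the low mean of this end rests mostly on the Kri1 side. The kilobase from 21288459, on the Cdkn2d side, was at 52.7% in young cells and 54.7% in old over 24 cytosines. The stretch under 20% at the Cdkn2d start was 1550 bp long in both ages. The span was at 18.9% in young cells and 19.1% in old over 144 cytosines.

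**Figure D3:**
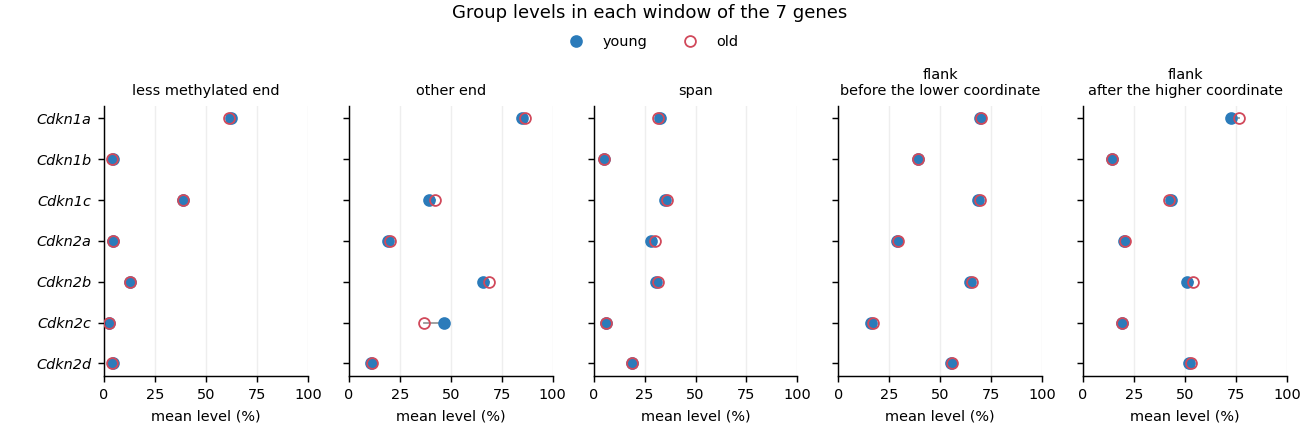
Mean level in percent of each member in 5 kinds of window, young as filled and old as open circles, both being the authors' group levels without error bars. The circles overlap in most windows, and the widest gap is the other end of Cdkn2c, at 46.9% in young cells and 37.1% in old over 16 cytosines.

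Across the members, spans were higher in old cells in 6 of 7 genes, against 72.0% of all genes, and in 4 of 4 INK4 genes. The mean span difference was 0.478 points (median 0.151) over the 7 members, 0.782 over the INK4 genes and 0.0723 over the Cip/Kip genes, beside 0.399 (median 0.389) over 20483 genes. Taking the median over the cytosines of each span in place of their mean, the members' mean difference was -0.000714 points. The test called 0% of all spans and 0 of 7 members, with 0.00976% of spans and 0 members at an unadjusted p under 0.05. Simes called 31.4% of all spans and 1 of 7 members, Cdkn2c, with an adjusted p of 1.07e-08 that rests on the cytosine at 109663842. The 14 flanks of 10 kb were higher in old cells in 12 cases, among them 8 of 8 INK4 flanks, against 62.3% of all flanks. Flanks of Cdkn2a and Cdkn2b overlap, so these 8 are not separate regions. The largest was the flank after Cdkn1a, at 72.7% in young cells and 76.5% in old over 86 cytosines. An adjusted p under 0.05 was found in 0% of all flanks and an unadjusted one in 0.00469%, and 0 of the 14 met either. Simes called 18.2% of all flanks and 4 of the 14: after Cdkn1a, before Cdkn1c, before Cdkn2a and after Cdkn2b by coordinate. Of the 9 RefSeq starts of the members other than Cdkn1c, 0 were called within 1000 bp, with 0% of 19567 starts called and 0.0256% of them, again 0 of the 9, at an unadjusted p under 0.05.

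**Figure D4:**
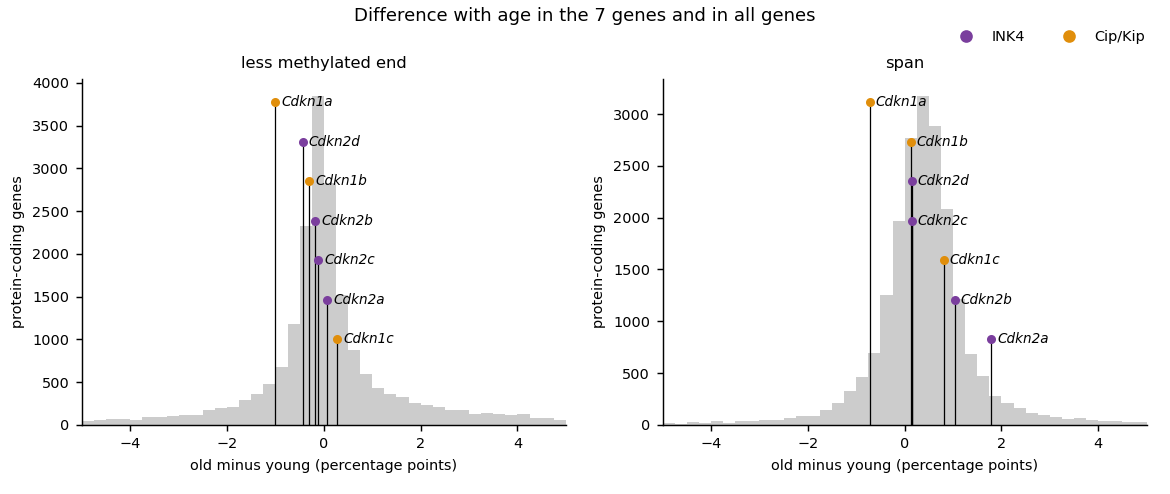
Number of protein-coding genes (grey bars) by the difference of old minus young in percentage points, at the less methylated end and over the span, with the 7 members as labelled points (INK4 purple, Cip/Kip orange, heights set only to separate the labels). The axis ends at 5 points on either side. At the end Cdkn1a lies lowest and Cdkn1c highest, at 0.277 points, and members run from -0.725 (Cdkn1a) to 1.79 points (Cdkn2a) over the span.

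Cytosine by cytosine, 95 of the 5818 in the 7 regions had p under 0.05 in the authors' deposited table, 1.63% against 2.61% of all cytosines. The FDR was under 0.05 at 7, which is 0.120% against 0.236% of all. The region of Cdkn2a held 44 of the cytosines with p under 0.05, 3.98% of its own. In the spans of members, the FDR was passed at 89286740 of Cdkn2a, at 9.73% in young cells and 35.5% in old, and at 109663842 of Cdkn2c, at 10.1% and 40.6%. Both lie inside the gene, 4548 bp before the p16 start and 1530 bp after the downstream Cdkn2c start. In the flanks, cytosines near Cdkn1a (29104813, 58.6% in young and 85.8% in old), Cdkn1c (143456389, 70.1% and 86.8%) and Cdkn2b (89315998, 82.1% and 91.8%) were higher in old cells. Lower in old cells were 143456672 near Cdkn1c, at 91.0% and 79.2%, and 89271457 near Cdkn2a, at 19.7% and 13.0%. None of the 7 lay within 1000 bp of an end of a member. For each of the 7, the cytosine of the same CpG on the other strand was listed at the same levels in young and old cells. Its FDR was at least 0.890, so no CpG passed on both strands, and the strands differed in p and not in level. At 143456672 the p was 4.14e-25 and its partner's p was 0.0400. Of the 7, 4 carried the most common dispersion value of either age, and the other 3 were at 29104813, 143456389 and 89286740.

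**Figure D5:**
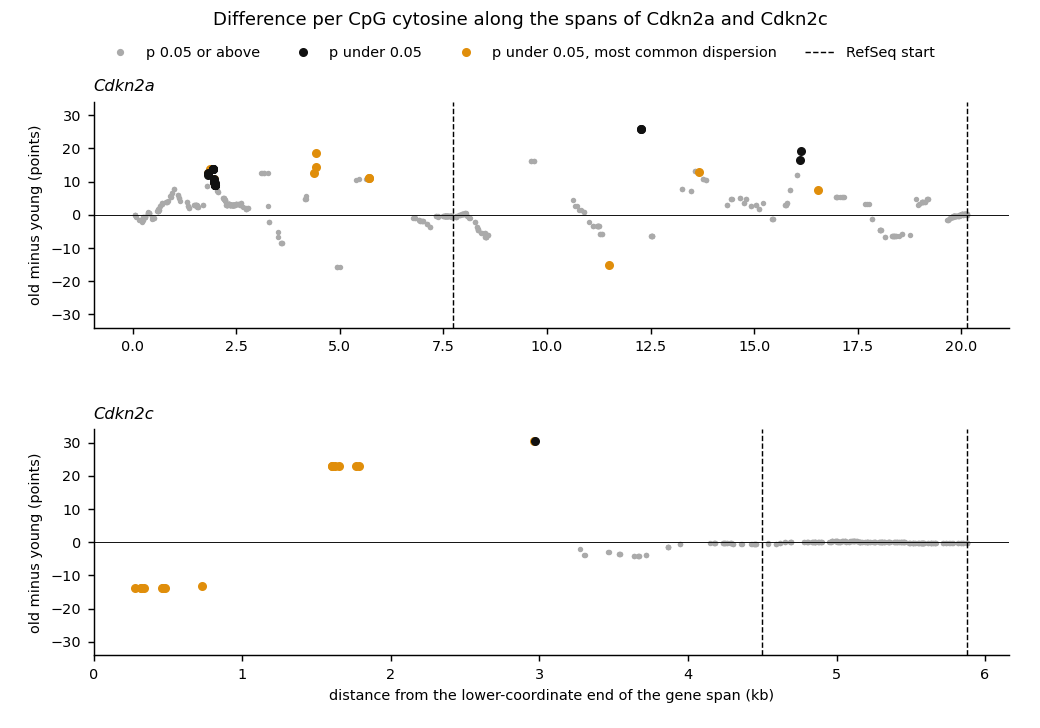
Difference of old minus young in percentage points for each listed cytosine along the spans of Cdkn2a and Cdkn2c, against distance in kb from the lower-coordinate end. Grey points have p of 0.05 or above, black and orange points have p under 0.05, and orange ones are at the most common dispersion value. In Cdkn2a, 34 of 541 cytosines have p under 0.05, and in Cdkn2c the groups with p under 0.05 lie both above and below 0 while the starts at the right lie near 0.

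Dispersion (phi), which the authors give without a definition in the sources used here, differed little between windows. Its median lay between 0.0410 and 0.0463 in young and between 0.0393 and 0.0461 in old cells over the 34 member windows, and was lower in old cells in 30 of them. The most common value over all cytosines was itself lower in old cells, 0.0434 against 0.0438 in young, so this order is shared with the whole table. At the less methylated end the members' median was 0.0460 in young cells and 0.0453 in old, beside 0.0446 and 0.0442 over all genes. At the Arf end of Cdkn2a it was 0.0461 and 0.0453, beside 0.0453 and 0.0449 at 6172 gene ends within 2 points of its level. The Cdkn1c span was lowest, at 0.0410 in young cells and 0.0393 in old. The highest values of single cytosines were 0.575 in young cells, between Cdkn2a and Cdkn2b, and 0.869 in old cells, in the flank after Cdkn1c. Of the 5818 cytosines 17.7% were at the most common value of an age, against 24.0% of all.

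The genes that act with these inhibitors were looked at through a list of 46: cyclins and CDKs, pocket proteins and E2F factors, the p53 axis, regulators of the Ink4a/Arf locus, and factors that turn over or bind p21 and p27. At the less methylated end 17 were higher and 29 lower in old cells, none was called, none had an unadjusted p under 0.05, and the median difference was -0.0604 points. Over the span 35 were higher and 11 lower, 0 were called, and the median difference was 0.273 points. These counts lean the same way as those over all genes. Among the 10 regulators of the Ink4a/Arf locus, which include the Polycomb genes Bmi1 and Ezh2, 3 ends were higher and 7 lower in old cells. The largest differences upward were at Mdm4, an inhibitor of p53, at 74.2% in young cells and 77.4% in old, and at Skp2, which marks p27 for degradation, at 79.5% and 80.4%. Downward they were at Ccnd3, cyclin D3, at 17.3% in young cells and 15.3% in old, and at Cbx7, a Polycomb protein that represses the Ink4a/Arf locus, at 68.1% and 66.6%. These are ends of gene spans, and levels at the RefSeq starts of these genes are not given here.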

How the data were processed

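The age in each label put the 8 libraries into 2 groups of 4. The submitters' processing notes name Trim Galore, Bismark and edgeR and the builds mm10 and GRCm38, with no role or version. The deposited table gives, per the file headers, a level (mu) per age as a fraction from 0 to 1, which often repeats from a position to the next and so was smoothed by the authors. Its dispersion (phi) for each age, named so per the file headers, was used as a score of undefined scale, next to the authors' deposited p-value and FDR per position. Smoothing shares reads between neighbours, so adjacent values are not independent and narrow differences are flattened.

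Deposited positions count from 0: with 1 added, 100% of 622217 positions inside RefSeq promoters fell on a CpG, against 55.6% with none added, and printed positions have 1 added. Levels were averaged with equal weight per position, on chromosomes 1 to 19 and X. Windows needed at least 10 positions. The p of a window was the median of the authors' p multiplied by 2, a bound under any dependence, with Benjamini-Hochberg adjustment over all protein-coding genes. The procedure was also run on simulated windows whose planted differences were larger than that of any member window. That run does not show whether differences of the size reported here would be called. Tests over animals, coverage minimums and leaving out animals were planned and not run, because the table used here holds no value per animal and no counts. p-values rest on the authors' model of the spread between animals, and their error carries over.

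The members and lists were chosen with earlier results of these data known. Genes named were all 7 members, Kcnq1ot1 and Mtap, the 2 list genes with the largest difference in each direction at the less methylated end, and runs of at least 5 neighbouring positions with p under 0.05, 1 sign and gaps of at most 100 bp. The groups of positions inside gene bodies (mean difference of at least 10 points), the kilobase bins, the marker genes printed, the neighbours and the limits of the stretches were chosen after values were seen, as were windows around RefSeq starts. Alternatives were windows of 500 and 2000 bp, minimums of 5 and 20 positions, Simes combination, medians over positions, 1 value per CpG, other FDR limits, and dropping positions with the most common dispersion. RefSeq starts and sequences were matched by symbol, and 6 of the 7 members had an entry. Python 3.11.15, numpy 2.4.6, pandas 2.3.3, scipy 1.17.1 and matplotlib 3.10.9 were used.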

Additional observations from a re-analysis of the deposited data

How the results depend on the processing

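No paired analysis was possible because the table gives 1 level per age and no value per animal, so replicate numbers could not enter a fit, and no animal could be left out. No end window of a member was called under any alternative run. Apart from Simes, which called 2.01% of all end windows, the alternatives called 0% of end windows over all genes. Their outcome at the members was thus that of every gene and shows no stability particular to these genes. By Simes 1 member span and 4 member flanks were called, a rule that also called 31.4% and 18.2% of all spans and flanks. Without positions at the most common dispersion, 3 positions in place of 7 passed the authors' FDR.

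Of 93 member differences recomputed, 78 kept their direction and 15 did not. The mean over members at the less methylated end was 0.613 points in windows of 500 bp and -0.461 by medians over positions, and over the span it was -0.000714 by medians. At the less methylated end the other direction was found in windows of 500 bp for Cdkn1a (4.22 points) and Cdkn2a (-0.0181), in windows of 2000 bp for Cdkn2a (-0.126), Cdkn2c (0.00729) and Cdkn2d (0.377), and by medians for Cdkn1c (-0.17). At the other end it was found in windows of 500 bp for Cdkn1c (-4.00) and Cdkn2b (-1.25) and in windows of 2000 bp for Cdkn1a (-0.958) and Cdkn2c (2.66). Over the span it was found by medians for Cdkn1b (-0.23), Cdkn1c (-0.21) and Cdkn2d (-0.15), without the most common dispersion for Cdkn1b (-0.0249), and with flanks for Cdkn1a (0.140). The mean at the other end was -0.300 points, -2.19 in windows of 500 bp, 1.30 in windows of 2000 bp, 0.169 without the most common dispersion, -0.154 with 1 value per CpG and 1.60 without Cdkn2c. The cause was not tested beyond the positions each window holds. Depth per position is unknown, so the precision of a level cannot be given.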
